A study of Mus musculus with 19 samples.

Results

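The transcripts of the mitochondrial genome were taken as every gene placed on chromosome MT in the count files, 35 of 49315 genes, namely 13 mRNA genes and 22 tRNA genes. The 2 ribosomal RNA genes, mt-Rnr1 and mt-Rnr2, were not analysed here. Every one of the 35 genes had the same start, end and strand in the GENCODE M21 annotation (GRCm38). Of the mRNA genes, 12 lay on the plus strand and 1, mt-Nd6, on the minus strand, and of the tRNA genes 14 lay on the plus strand and 8 on the minus strand. The tRNA genes were 59 to 75 bases long.

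The mitochondrial genome is a small circle of DNA that is copied and transcribed inside the mitochondrion, apart from the nuclear chromosomes. It encodes protein subunits of the respiratory chain and the ATP synthase, the tRNAs that carry amino acids to the mitochondrial ribosome, and the ribosomal RNAs of that ribosome. Both strands are transcribed as long precursors, and in the accepted model the tRNAs lie between the longer genes as punctuation, where RNase P and the ELAC2 nuclease cut at their ends to release the mRNAs. Liver is rich in mitochondria, and most mature mitochondrial mRNAs carry short poly(A) tails, whereas mature tRNAs do not.

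Livers came from 19 female mice on a C57BL/6N background, and poly(A)-selected RNA was sequenced in 1 library per mouse. Gramd1c encodes Aster-C, a sterol transfer protein of the endoplasmic reticulum. Gramd1c-/- mice carried a knockout-first (tm1a) allele in all tissues, and their Gramd1c+/+ littermates came from heterozygous crosses. From 8 weeks of age the mice were fed for 4 weeks a diet with 0.02% (low) or 0.2% (high) cholesterol by weight, which left, on low cholesterol, 5 Gramd1c+/+ mice and 4 Gramd1c-/- mice, and on high cholesterol 5 mice of each genotype. The question was whether the knockout or the diet went with the level of mitochondrial transcripts, and whether the counts of tRNAs followed those of the genes beside them.

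Library totals ran from 27149972 to 34669648 counts (median 30159347). Gramd1c stood at 9.56 to 15.99 TPM (counts per length, scaled to a common total in each mouse) in the 10 Gramd1c+/+ mice and at 1.07 to 3.61 TPM in the 9 Gramd1c-/- mice, with no overlap. The labels name gonadal adipose tissue as the tissue and liver as the cell type. Summed over 6 hepatocyte markers, levels were 81408 to 130449 TPM, and summed over 5 adipocyte markers they were 26.1 TPM or less. Gramd1c+/+ low cholesterol mouse 2 held 616 TPM of 6 adrenal cortex markers, against 1.76 to 4.597 TPM in the other mice, and its share of mitochondrial counts, 3.89%, lay inside the range of its group. Gramd1c-/- high cholesterol mouse 3 held 59.0 TPM of exocrine pancreas markers and 141 TPM of cholangiocyte markers, and mouse 4 of that group held 740 TPM of Kupffer cell markers. The part of these cells in the values below was not tested. In whole liver, fewer mitochondria-rich cells and less mitochondrial RNA per cell cannot be told apart.

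The tRNA sequences that the results turn on are given first, in the sense of each gene and with T for U, read from the GENCODE M21 transcripts. They are the mt-Ti and mt-Tq genes between mt-Nd1 and mt-Nd2, which had the largest fitted fold changes between genotypes on low cholesterol, and the 4 tRNA genes with the highest counts. Capitals mark the anticodon.
mt-Ti (isoleucine), MT:3706-3774, plus strand: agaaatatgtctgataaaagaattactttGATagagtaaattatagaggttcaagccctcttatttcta
mt-Tq (glutamine), MT:3772-3842, minus strand: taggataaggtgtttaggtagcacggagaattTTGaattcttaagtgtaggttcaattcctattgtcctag
mt-Tl1 (leucine), MT:2676-2750, plus strand: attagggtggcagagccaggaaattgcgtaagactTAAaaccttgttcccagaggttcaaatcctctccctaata
mt-Tn (asparagine), MT:5089-5159, minus strand: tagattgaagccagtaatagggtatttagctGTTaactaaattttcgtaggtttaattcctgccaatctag
mt-Te (glutamate), MT:14071-14139, minus strand: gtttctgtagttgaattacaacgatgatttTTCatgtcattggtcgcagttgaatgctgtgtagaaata
mt-Tp (proline), MT:15356-15422, minus strand: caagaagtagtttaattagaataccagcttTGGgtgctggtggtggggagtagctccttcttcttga

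The genes are packed closely, and some overlap. mt-Ti shares its first 2 bases with the end of mt-Nd1 and its last 3 bases with mt-Tq, which runs the other way, and 2 bases then separate mt-Tq from mt-Tm. From mt-Tf to mt-Tp along the annotated coordinates, the widest gap between neighbouring genes is 32 bases, between mt-Tn and mt-Tc. The stretch between mt-Tp and mt-Tf, which holds the control region of the circle, has no annotated gene. The sources used here name neither a library step that keeps the strand nor the strand setting of the counting. Without both, reads from a tRNA, or from mt-Nd6 on the minus strand, and from RNA of the opposite strand at the same place cannot be told apart.

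Mitochondrial genes took a few percent of all counts, and nearly all of it was mRNA. Over the 19 mice the mRNA genes held 99.3% of mitochondrial counts (29541597 counts) and the tRNA genes 0.710% (211191 counts). The level was not even among the mRNA genes. mt-Co1, the catalytic core of complex IV, alone held 39.6% of mitochondrial counts, mt-Cytb of complex III held 18.3%, and mt-Nd2 and mt-Nd1 of complex I held 11.5% and 11.3%.

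The mRNA genes fell into an abundant and a scarce set, split by position. The 7 abundant genes (mt-Nd1, mt-Nd2, mt-Co1, mt-Nd4, mt-Nd5, mt-Nd6 and mt-Cytb) had mean levels from 5128 TPM (mt-Nd5) to 29259 TPM (mt-Co1). The other 6, mt-Co2 and mt-Co3 of complex IV, mt-Atp8 and mt-Atp6 of the ATP synthase, and mt-Nd3 and mt-Nd4l of complex I, had mean levels from 9.06 TPM (mt-Nd3) to 57.1 TPM (mt-Atp6). In every mouse each abundant gene was far above each scarce one: the lowest abundant value was 3245 TPM (mt-Nd6, Gramd1c+/+ low cholesterol mouse 3) and the highest scarce value was 96.5 TPM (mt-Atp6). The 6 scarce genes are consecutive mRNA genes along the circle, from mt-Co2 to mt-Nd4l.

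**Figure D1:**
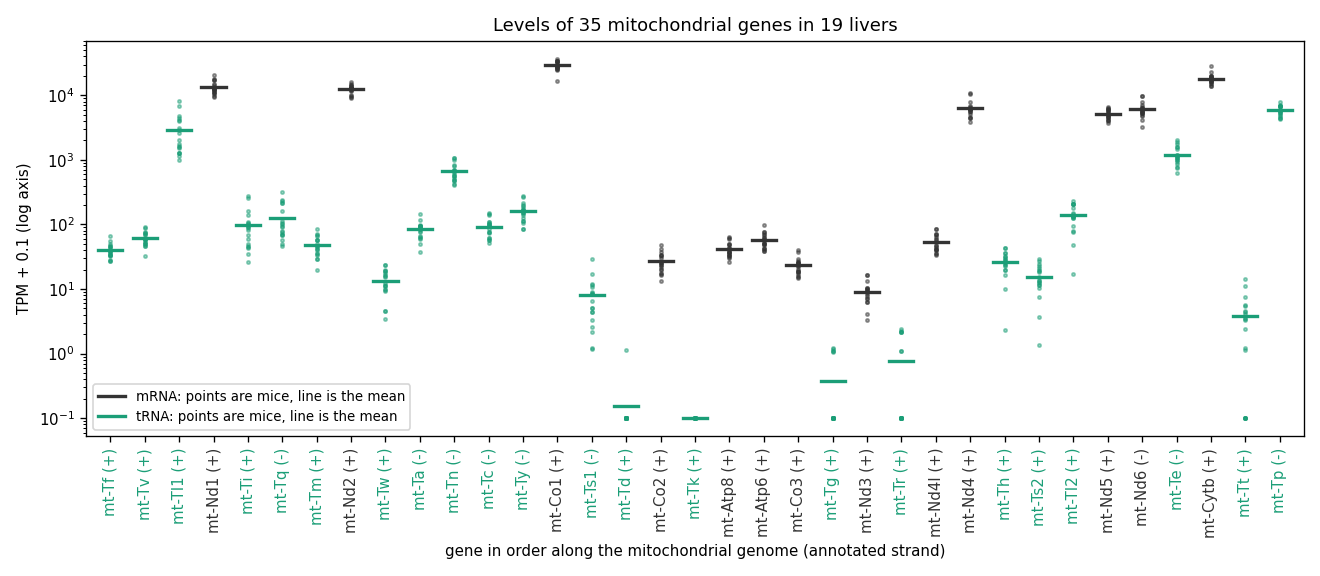
Levels of the 35 mitochondrial genes in order along the circle, as TPM with 0.1 added on a log axis. Points are the 19 mice, lines are means, and signs give the strand. The mRNA genes from mt-Co2 to mt-Nd4l reach 96.5 TPM at most, the other mRNA genes start at 3245 TPM, and the tRNA genes span the range from 0 TPM (mt-Tk) to 8314 TPM (mt-Tl1).

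That run of scarce genes coincided with a stretch of nuclear DNA that carries the same sequence. 7 pseudogenes on chromosome 1 (chr1:24611535-24616197, minus strand, GRCm38) matched MT:6381-11042, with coordinates running the opposite way. Paired coordinates added up to 1 constant to within 1 base, and 98.8% to 100% of bases were identical. The stretch holds 11 of the 35 genes completely, namely the 6 scarce mRNA genes and 5 tRNA genes, mt-Ts1, mt-Td, mt-Tk, mt-Tg and mt-Tr. Of all windows of 50 bases in mt-Co2, 100% matched another annotated transcript exactly, and the share was 99.9% for mt-Co3, 99.5% for mt-Atp6, 98.8% for mt-Nd4l and 98.0% for mt-Nd3. It was 62.2% for mt-Nd4 and 51.1% for mt-Co1, which the stretch covers in part. For mt-Co1 the matching transcripts also included Gm13340 on chromosome 2 and Gm11512 on chromosome 11. The share was 8.19% for mt-Nd2 and 7.61% for mt-Nd5, with copies on other chromosomes than 1, and 0% for mt-Nd1, mt-Nd6 and mt-Cytb. mt-Atp8, at 0%, has no annotated copy in this stretch of chromosome 1 but lies inside it.

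The start of mt-Nd3 and of its copy Gm28438, and the stretch of mt-Co1 where its copy Gm29216 begins, show how few bases set them apart. Capitals mark the differing bases.
mt-Nd3, MT:9459-9518: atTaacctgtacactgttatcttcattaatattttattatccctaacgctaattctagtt
Gm28438, chr1:24613060-24613119: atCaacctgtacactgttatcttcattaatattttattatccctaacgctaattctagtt
mt-Co1, MT:6381-6440: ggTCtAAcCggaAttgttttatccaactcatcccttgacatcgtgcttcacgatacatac
Gm29216, chr1:24616138-24616197: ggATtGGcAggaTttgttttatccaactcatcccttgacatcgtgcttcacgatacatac
Counted from the start of each stretch, mt-Nd3 and Gm28438 differed at T3C, the 1 difference over 345 bases compared, and all 6 differences between mt-Co1 and Gm29216 over 492 bases fell in the stretch shown.

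The pseudogenes themselves were counted. Gm28437, the copy of mt-Co3, had 336 to 2454 counts per mouse, whereas mt-Co3 had 154 to 479. Gm28438 had 252 to 1169 counts and mt-Nd3 had 15 to 81. It is unknown how reads that match several places were counted. The levels of these 6 mRNA genes, and of the 5 tRNA genes in the stretch, are therefore uncertain. So are those of mt-Co1 and mt-Nd4, with 51.1% and 62.2% of windows shared. On chromosome 2, Gm13339, Gm13340 and Gm13341 matched parts of mt-Nd2, mt-Co1 (97.6% identical) and mt-Co2, with the same constant of paired coordinates. The tRNA genes from mt-Tw to mt-Ty lie between mt-Nd2 and mt-Co1. Whether chromosome 2 holds copies of these tRNA genes was not tested. The tRNA genes inside the stretch shared with chromosome 1 had 0 to 143 counts in all 19 mice together, and those outside had 65 to 102544.

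The tRNA genes differed among themselves by far more than any group did. Over the 19 mice mt-Tp had 102544 counts, mt-Tl1 58088, mt-Te 21853 and mt-Tn 12231, and these 4 held 92.2% of tRNA counts. Next came mt-Ty (tyrosine) with 2807, mt-Tl2 (the other leucine tRNA) with 2602, mt-Tq with 2353, mt-Ti with 1787, mt-Tc (cysteine) with 1588 and mt-Ta (alanine) with 1506. mt-Td had 1 count and mt-Tk had 0, which allows up to 3 by counting error alone. Those 2 genes lie in the stretch shared with chromosome 1.

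The tRNA genes with the lowest counts, mt-Tk (0), mt-Td (1), mt-Tg (5) and mt-Tr (12), lay beside scarce mRNA genes in the shared stretch. Outside that stretch, several tRNA levels were unlike those of the genes beside them. Whether tRNA levels follow the levels of their neighbours along the circle was not tested. mt-Tp stands next to the control region and mt-Tl1 next to mt-Rnr2, a ribosomal RNA gene that was not analysed here. mt-Tn borders the 32-base gap, but mt-Tc, on its other side, had 92.3 TPM against 664 TPM for mt-Tn. mt-Te lies between mt-Nd6 and mt-Cytb, 5 bases from the latter. mt-Tt (threonine) abuts the end of mt-Cytb (18160 TPM), yet had 3.72 TPM, and mt-Tw (tryptophan) overlaps the end of mt-Nd2 (12581 TPM) by 2 bases and had 13.4 TPM. mt-Tv (valine), between both ribosomal RNA genes, had 61.5 TPM. The libraries were poly(A)-selected, and the values are not levels of mature tRNA.

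Single mice differed widely in some of the tRNAs. Between the highest and the lowest mouse the 7 abundant mRNAs differed by 1.80 to 3.05 times, and the coefficient of variation over the 19 mice was 15.5% (mt-Nd2) to 28.6% (mt-Nd4). For the 17 tRNAs that passed the filter on low counts it was 17.7% (mt-Tp) to 85.3% (mt-Ts1, with 1 to 29 counts per mouse). mt-Tl1 is not scarce, at 976 to 9373 counts per mouse, and still varied by 8.26 times. It had 8314 TPM in Gramd1c+/+ high cholesterol mouse 3 and 6927 TPM in Gramd1c-/- high cholesterol mouse 2, against 1290 and 1141 TPM in the lowest mouse of each of these groups. The mice highest in mt-Tl1 were of both genotypes.

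By group, the share of all counts on the 35 genes was 4.17% ± 0.64 (SD, n = 5) in Gramd1c+/+ mice on low cholesterol, 5.05% ± 0.25 (n = 4) in Gramd1c-/- mice on low cholesterol, 5.75% ± 0.86 (n = 5) in Gramd1c+/+ mice on high cholesterol and 5.65% ± 0.78 (n = 5) in Gramd1c-/- mice on high cholesterol. The ranges were 3.23% to 4.92%, 4.75% to 5.29%, 5.17% to 7.27% and 4.63% to 6.44%. The 2 low cholesterol groups overlapped, the high cholesterol groups overlapped, and in Gramd1c+/+ mice each mouse on high cholesterol was above each mouse on low cholesterol. No test was run on these shares.

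Genes were compared with edgeR's quasi-likelihood test on 15016 genes with Benjamini-Hochberg adjusted p-values, and 30 of the 35 members passed the filter on low counts (13 mRNA and 17 tRNA genes). The 5 that did not pass were mt-Td, mt-Tk, mt-Tg, mt-Tr and mt-Tt. No member was past an adjusted p of 0.05 in any comparison, by edgeR or by DESeq2. The share of all tested genes past it was 0.00666% for Gramd1c-/- against Gramd1c+/+ on low cholesterol, 0.00666% for the same comparison on high cholesterol, 0.44% for diet in Gramd1c+/+ mice, 0.326% for diet in Gramd1c-/- mice and 0% for the interaction. Fold changes below are therefore values, not calls.

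On low cholesterol, Gramd1c-/- mice had higher fitted values than Gramd1c+/+ mice for 13 of 13 mRNA genes and 16 of 17 tRNA genes, where 49.7% of all tested genes were higher. The median log2 fold change was 0.33 over the mRNA genes and 0.58 over the tRNA genes, beside -0.0014 over all genes tested. At an unadjusted p below 0.05 by edgeR there were 10 of 30 members, with 2.66% of all genes there, and with DESeq2 there were 8 tRNA and 2 mRNA genes. The edgeR count was 4 without Gramd1c+/+ low cholesterol mouse 3, 5 without mouse 2 of that group, and 6 without Gramd1c-/- low cholesterol mouse 1, 3 or 4. Genes read from a shared precursor are not independent of each other, and with the mitochondrial mRNA total as the library size 7 of 13 mRNA and 13 of 17 tRNA genes were higher, with medians of 0.058 and 0.31.

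mt-Nd2, a complex I subunit, had the smallest p among the mRNA genes. It stood at 11703, 9675, 9059, 9989 and 9354 TPM in the Gramd1c+/+ mice and at 12914, 12647, 12976 and 13187 TPM in the Gramd1c-/- mice. The groups did not overlap, and the log2 fold change was 0.37 (SE 0.16, unadjusted p = 0.0323, adjusted p = 0.999, edgeR). mt-Nd5 and mt-Nd6, also of complex I, followed with log2 fold changes of 0.33 (SE 0.15) and 0.42 (SE 0.26), and their groups did not overlap either.

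mt-Tq had the smallest p among the tRNA genes. It stood at 67.5, 49.9, 47.0, 75.7 and 105 TPM in the Gramd1c+/+ mice on low cholesterol and at 234, 213, 242 and 95.9 TPM in the Gramd1c-/- mice. In 3 Gramd1c-/- mice it was above every Gramd1c+/+ mouse, and in mouse 4 it was below the highest of them. The log2 fold change was 1.51 (SE 0.49, unadjusted p = 0.00568, adjusted p = 0.999, edgeR), the 25th smallest p of all genes tested. mt-Te followed, at 851, 754, 626, 990 and 1189 TPM against 1742, 1569, 1572 and 1164 TPM, with a log2 fold change of 0.78 (SE 0.29). Its mouse 4 was again the lowest of the Gramd1c-/- mice. mt-Ta, for alanine, came after mt-Te with 0.68 (SE 0.27).

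mt-Ti, which adjoins mt-Nd1, stood at 43.4, 34.2, 25.8, 46.1 and 60.5 TPM in the Gramd1c+/+ mice on low cholesterol and at 93.0, 69.8, 108 and 91.9 TPM in the Gramd1c-/- mice. The groups did not overlap, and they did not for mt-Tc, mt-Ty and mt-Tw either. How many of all tested genes had groups without overlap was not counted in any comparison. The log2 fold change of mt-Ti was 1.10 (SE 0.46, unadjusted p = 0.0280, adjusted p = 0.999, edgeR). The mt-Ti values rest on 24 to 95 counts per mouse. Those of mt-Tw rest on 4 to 10 counts in Gramd1c+/+ mice and 10 to 18 in Gramd1c-/- mice.

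**Figure D2:**
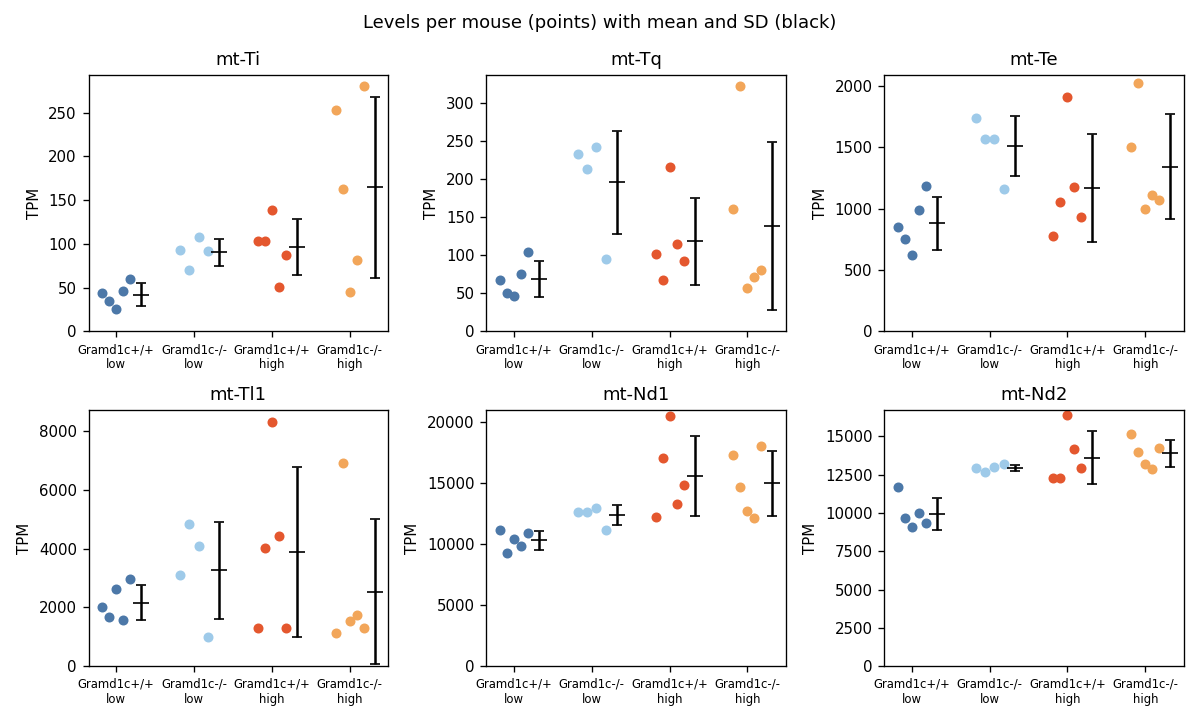
Levels of mt-Ti, mt-Tq, mt-Te, mt-Tl1, mt-Nd1 and mt-Nd2 in TPM for each mouse (points) in the 4 groups, with mean and SD in black and axes from 0. Of the genes shown, mt-Ti and mt-Nd2 have low cholesterol groups that do not overlap, and for mt-Tq and mt-Tl1 single mice set the spread of the high cholesterol groups.

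On high cholesterol the members were split. Of the mRNA genes 3 of 13 had higher fitted values in Gramd1c-/- mice (median log2 fold change -0.081) and of the tRNA genes 12 of 17 (median 0.11), where 52.2% of all tested genes were higher. No member had an unadjusted p below 0.05, by edgeR or DESeq2, against 2.42% of all genes. The direction of the mRNA genes did not hold under other settings. With a term for the 2 runs, of 13 and 6 mice, into which the animal numbers fall, 9 of 13 mRNA genes (median 0.029) and 14 of 17 tRNA genes (median 0.30) were higher, 2 tRNA genes at an unadjusted p below 0.05. Relative to the mitochondrial mRNA total 9 of 13 (median 0.031) and 14 of 17 (median 0.16) were higher. Without Gramd1c+/+ high cholesterol mouse 3, 12 of 13 mRNA genes were higher (median 0.13), and without Gramd1c-/- high cholesterol mouse 3 or 4, 7 of 13 (medians 0.030 and 0.0052). The tRNA median was 0.028 to 0.19 with each mouse left out.

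The mRNA genes with the smallest p on high cholesterol were mt-Nd3 (log2 fold change 0.36, SE 0.33), mt-Co1 (-0.14, SE 0.16) and mt-Atp8 (-0.18, SE 0.24), the last of which was 0.032 without Gramd1c+/+ high cholesterol mouse 3. Among the tRNA genes they were mt-Ty (0.41, SE 0.24), mt-Ti and mt-Tc (-0.35, SE 0.27). mt-Ti stood at 104, 103, 139, 50.6 and 86.8 TPM in Gramd1c+/+ mice and at 253, 163, 45.1, 81.2 and 281 TPM in Gramd1c-/- mice (log2 fold change 0.72, SE 0.42). The latter group held both the highest and the lowest mouse. mt-Tq stood at 102, 68.2, 216, 115 and 92.8 TPM against 161, 323, 57.4, 72.2 and 80.4 TPM (0.16, SE 0.45), and without the mouse at 323 TPM the log2 fold change was -0.44.

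In Gramd1c+/+ mice the high cholesterol diet went with higher fitted values for 12 of 13 mRNA genes and 16 of 17 tRNA genes, where 51.2% of all tested genes were higher. The medians were 0.49 and 0.54, beside 0.0068 over all genes tested. At an unadjusted p below 0.05 by edgeR there were 13 of 30 members (7.93% of all genes). Without Gramd1c+/+ high cholesterol mouse 3 there were 5, with medians of 0.33 and 0.41, and there were 8 without mouse 2 of that group or without Gramd1c+/+ low cholesterol mouse 2. The smallest adjusted p was 0.299, for mt-Nd2, at 12257, 12312, 16375, 14181 and 12966 TPM on high cholesterol against the 9059 to 11703 TPM given above on low cholesterol. Its log2 fold change was 0.51 (SE 0.15), and the groups did not overlap. mt-Nd1 (0.66, SE 0.21) and mt-Nd4 (0.70, SE 0.25) followed among the mRNA genes.

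Among the tRNA genes mt-Ti had the smallest p for this diet comparison, with a log2 fold change of 1.28 (SE 0.44, unadjusted p = 0.00886, adjusted p = 0.420, edgeR), and 1 mouse on high cholesterol, at 50.6 TPM, lay within the low cholesterol range. mt-Tp and mt-Tc (0.73, SE 0.28) were next, and mt-Tq had 0.86 (SE 0.47). mt-Tp, the most counted tRNA, stood at 4390, 4236, 5270, 5616 and 4994 TPM on low cholesterol and at 6724, 5909, 5894, 6824 and 6561 TPM on high cholesterol, with no overlap (log2 fold change 0.42, SE 0.15). Relative to the mitochondrial mRNA total its log2 fold change was -0.026. On that scale 7 of 13 mRNA genes and 10 of 17 tRNA genes were higher, and the median of all genes tested moved to -0.43.

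In Gramd1c-/- mice the diet went with higher fitted values for 10 of 13 mRNA genes (median log2 fold change 0.12) and 8 of 17 tRNA genes (median -0.068), where 52.6% of all tested genes were higher. Without the 2 mice that stood apart in earlier results, Gramd1c+/+ low cholesterol mouse 2 and Gramd1c-/- high cholesterol mouse 5, 7 of 13 mRNA genes (median 0.015) and 9 of 17 tRNA genes (median 0.0017) were higher. With the term for the runs of animal numbers the mRNA median was 0.052, and relative to the mitochondrial mRNA total it was 0.031. With each mouse left out the mRNA median ran from 0.015, without mouse 5 on high cholesterol, to 0.24, without mouse 4 of that group. The tRNA median then ran from -0.11 to 0.21 and was above 0 without Gramd1c-/- low cholesterol mouse 1 or 4 or high cholesterol mouse 1, 3, 4 or 5.

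In this comparison 1 member, mt-Tl2, had an unadjusted p below 0.05 by edgeR (11.4% of all genes did). It stood at 79.2, 94.0, 76.0 and 131 TPM on low cholesterol and at 134, 211, 144, 211 and 229 TPM on high cholesterol, with no overlap (0.96, SE 0.39, adjusted p = 0.380). The number of members at this level was 0 without the 2 mice that stood apart or without low cholesterol mouse 1 or 3, 3 without high cholesterol mouse 3 and 6 without high cholesterol mouse 2. mt-Tp (0.32, SE 0.16) and mt-Ti (0.90, SE 0.45) followed mt-Tl2 among the tRNA genes, and mt-Tq had -0.49 (SE 0.48). The mRNA genes with the smallest p were mt-Nd1 (0.28, SE 0.22), mt-Nd5 (-0.18, SE 0.15) and mt-Nd3 (0.39, SE 0.35).

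The difference of the genotype effect between the diets was negative for 13 of 13 mRNA genes (median -0.35) and 15 of 17 tRNA genes (median -0.38), where 47.1% of all tested genes were negative. This interaction shares its mice with the 4 comparisons above and is not separate evidence. No member passed it by edgeR or DESeq2, and 1 member, mt-Tc, had an unadjusted p below 0.05 by edgeR (-1.08, SE 0.40, unadjusted p = 0.0137, adjusted p = 0.9999), with 1.66% of all genes there. For mt-Tq the value was -1.35 (SE 0.66), for mt-Tw -1.12 (SE 0.64) and for mt-Ti -0.38 (SE 0.62). The mRNA genes with the smallest p were mt-Nd2 (-0.42, SE 0.22), mt-Atp8 (-0.53, SE 0.35) and mt-Co1 (-0.35, SE 0.24). The mRNA median was -0.17 without Gramd1c+/+ high cholesterol mouse 3, and the tRNA median was -0.21 without Gramd1c-/- high cholesterol mouse 3. Relative to the mitochondrial mRNA total the split was 6 of 13 and 10 of 17 negative.

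**Figure D3:**
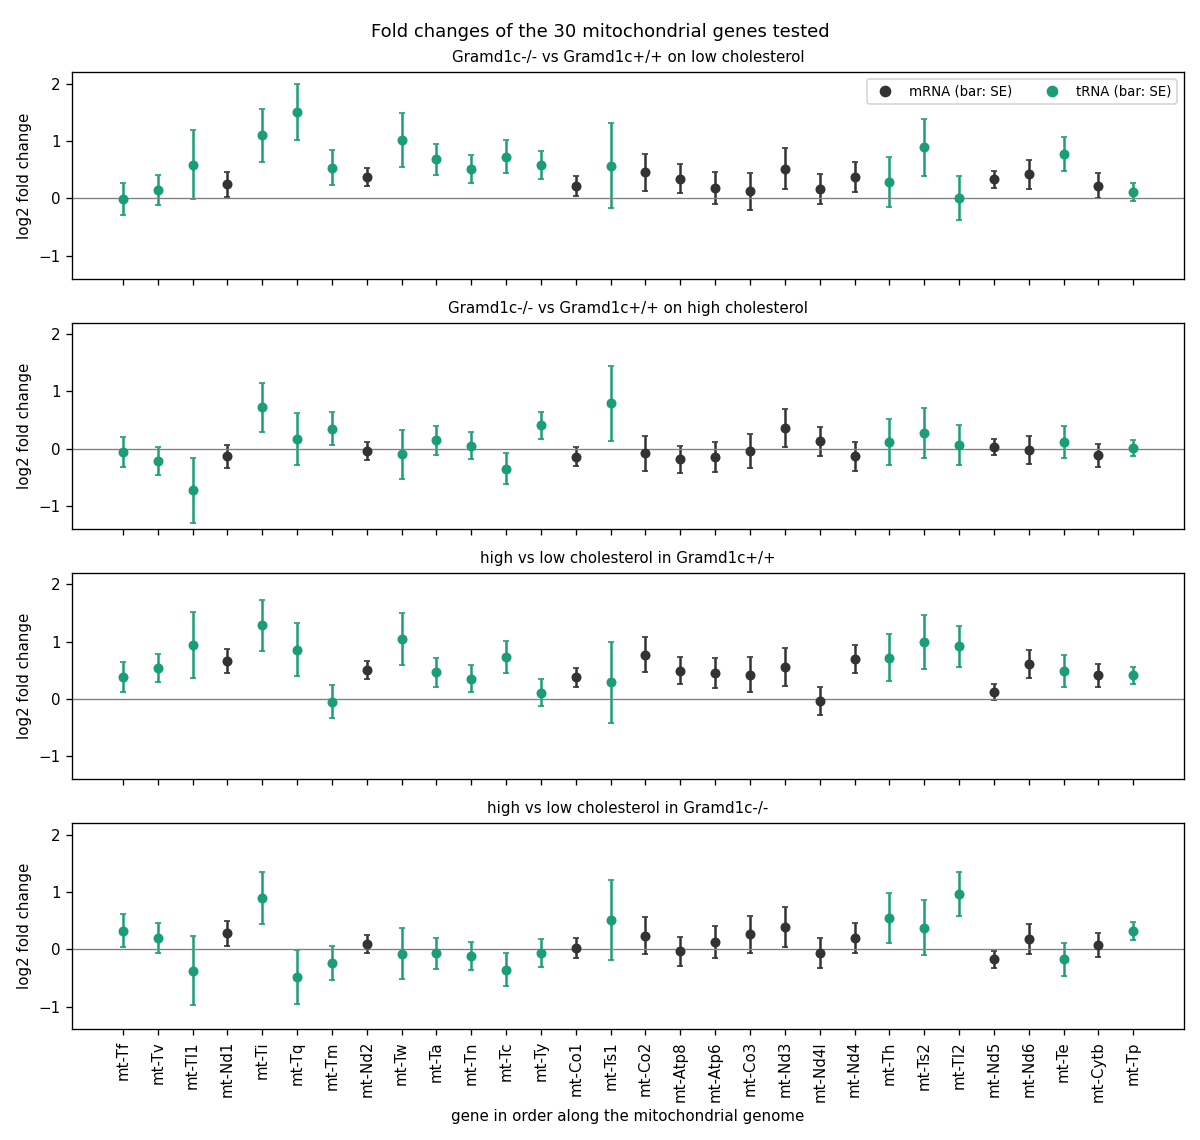
Fitted log2 fold changes with SE for the 30 members tested, in order along the circle, in each of the 4 comparisons. Values for Gramd1c-/- against Gramd1c+/+ on low cholesterol and for diet in Gramd1c+/+ mice lie above 0 for 29 and 28 of 30 members, and the other comparisons straddle 0. No value passed an adjusted p of 0.05.

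To set the small tRNAs against their neighbours within each mouse, the log2 ratio of mt-Ti or mt-Tq to mt-Nd1 or mt-Nd2 was taken per length (0.5 added to each count). In Gramd1c+/+ mice on low cholesterol the ratio of mt-Ti to mt-Nd1 was -7.98 ± 0.43 (SD, n = 5), and in Gramd1c-/- mice it was -7.10 ± 0.27 (n = 4), a difference of 0.88 (exact permutation test, two-sided, p = 0.0238; adjusted over 16 ratio comparisons p = 0.148). For mt-Ti to mt-Nd2 the difference was 0.76 (exact p = 0.0317). For mt-Tq the differences were 1.21 relative to mt-Nd1 (exact p = 0.0238) and 1.09 relative to mt-Nd2 (exact p = 0.0397). The 3 Gramd1c-/- mice with high mt-Tq had ratios to mt-Nd1 from -5.89 to -5.74, and mouse 4 had -6.85. None of the 16 comparisons passed an adjusted p of 0.05, and in each of them the groups overlapped.

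For diet in Gramd1c+/+ mice the ratio of mt-Ti was 0.60 higher relative to mt-Nd1 and 0.73 higher relative to mt-Nd2 (exact p = 0.0556 for each, adjusted p = 0.148). Ratios of mt-Tq moved by 0.16 and 0.28 (exact p = 0.611 and 0.341). The remaining 8 comparisons, in the high cholesterol and Gramd1c-/- mice, had exact p-values of 0.135 or more.

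Whether tRNA counts followed neighbouring transcripts was asked over single mice. For each tested tRNA and the nearest mRNA gene on either side, the correlation over the 19 mice was taken on log2 CPM (counts scaled to library size) after the group means were subtracted, with mice permuted within groups. Of 29 such relations for 16 tRNAs, 23 were positive, with Pearson's r from -0.34 to 0.80 and a median of 0.38. 6 passed an adjusted p of 0.05 over the 29. All 119 pairs of a tested tRNA and an abundant mRNA gene, flanking or not, had a median r of 0.36, near that of the flanking pairs. Pairs that do not flank were not tested, so no share over all pairs stands beside the 6.

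mt-Ti followed both neighbours, with r = 0.80 (Spearman's rho 0.77) for mt-Nd1 and 0.74 (rho 0.75) for mt-Nd2 (permutation p = 0.00086 and 0.00322, adjusted 0.0249 and 0.0417). Without the 2 mice farthest from the median of the mRNA, r was 0.77 and 0.83. mt-Te followed mt-Nd6 (r = 0.73, rho 0.73) and mt-Cytb (r = 0.71, rho 0.64), with permutation p = 0.00575 and 0.00895 (adjusted 0.0417 and 0.0471), and r was 0.75 and 0.67 without the farthest 2 mice. mt-Tq followed mt-Nd2 (r = 0.65, rho 0.68, permutation p = 0.00974, adjusted 0.0471, and r = 0.62 without the farthest 2 mice). mt-Ty followed mt-Co1 (r = 0.57, rho 0.51, permutation p = 0.00522, adjusted 0.0417, and r = 0.60 without the farthest 2 mice). The adjusted p for rho was 0.0355 for the mt-Ti relations and for mt-Te with mt-Nd6, and 0.0517, 0.0517 and 0.120 for mt-Tq, mt-Te with mt-Cytb, and mt-Ty.

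Of the 23 relations that did not pass, 17 were positive, the highest being mt-Tf with mt-Cytb (r = 0.64), mt-Tq with mt-Nd1 (0.58) and mt-Ts1 with mt-Co2 (0.55). The other 6 were negative. mt-Tm, which abuts mt-Nd2 on the same strand, had r = -0.024 with mt-Nd2 and -0.34 with mt-Nd1. mt-Ty had r = -0.085 with mt-Nd2, and mt-Tl2, which abuts mt-Nd5, had r = -0.036 with it. The permutation p-values for the relations of mt-Tm, mt-Ty and mt-Tl2 named here were 0.238 or more. At n = 19 a weak relation would not have been detectable.

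For 1 of 16 tRNAs, mt-Ty with mt-Co1, the mRNA gene with the highest r was a flanking one. With 29 flanking pairs and 13 mRNA genes, 2.23 of 16 would be so if each mRNA gene were equally likely, and the count was 1 to 4 with each mouse left out, so the count does not set neighbours apart from other mRNA genes in either direction. For mt-Ti the r with mt-Nd1 (0.801) was close to the highest, with mt-Nd3 (0.805). For 7 tRNAs it was mt-Nd3, a scarce gene of the stretch shared with chromosome 1, and for 4 it was mt-Co1. Relations to a neighbour annotated on the same strand had a median r of 0.17 (15 relations), and those to a neighbour annotated on the opposite strand 0.43 (14 relations). The abundant mRNA genes correlated among themselves with a median r of 0.65 over 21 pairs and a range of 0.035 to 0.94.

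Taken relative to the mitochondrial mRNA total, 1 relation was past the threshold. That was mt-Ty with mt-Co1 (r = 0.79, permutation p = 0.00066, adjusted p = 0.0191). Its rho was 0.67 (adjusted permutation p = 0.203), and r was 0.59 without the farthest 2 mice. Both genes are divided by the same total, of which mt-Co1 is a large part (39.6% of mitochondrial counts). mt-Ti with mt-Nd1 then had r = 0.57 (permutation p = 0.0353, adjusted 0.341), and with mt-Nd2 0.11. mt-Tq with mt-Nd2 had 0.096, and mt-Te had 0.38 with mt-Nd6 and 0.22 with mt-Cytb. The number past the threshold on the first scale also rested on single mice. It was 0 without Gramd1c-/- high cholesterol mouse 1 and 7 without mouse 5 of that group, and it was 1 without Gramd1c+/+ low cholesterol mouse 2 or 4, Gramd1c-/- low cholesterol mouse 1 or 3, Gramd1c+/+ high cholesterol mouse 2, or Gramd1c-/- high cholesterol mouse 3 or 4. It was 2 or 3 without Gramd1c+/+ low cholesterol mouse 3 or 5, Gramd1c-/- low cholesterol mouse 4, or Gramd1c+/+ high cholesterol mouse 1, 3 or 4. The r of mt-Ti with mt-Nd1 stayed at 0.77 to 0.85 without any of these mice.

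Within the runs of animal numbers mt-Ti and mt-Nd1 had r = 0.82 and 0.83, mt-Ti and mt-Nd2 0.81 and 0.80, mt-Tq and mt-Nd2 0.72 and 0.85, mt-Te and mt-Nd6 0.72 and 0.97, and mt-Te and mt-Cytb 0.71 and 0.995. mt-Ty and mt-Co1 had r = 0.69 in the run of 13 mice and 0.0083 in the run of 6. Group means were subtracted again within each run. The run of 6 leaves few mice per group, so r there cannot decide whether a relation holds.

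**Figure D4:**
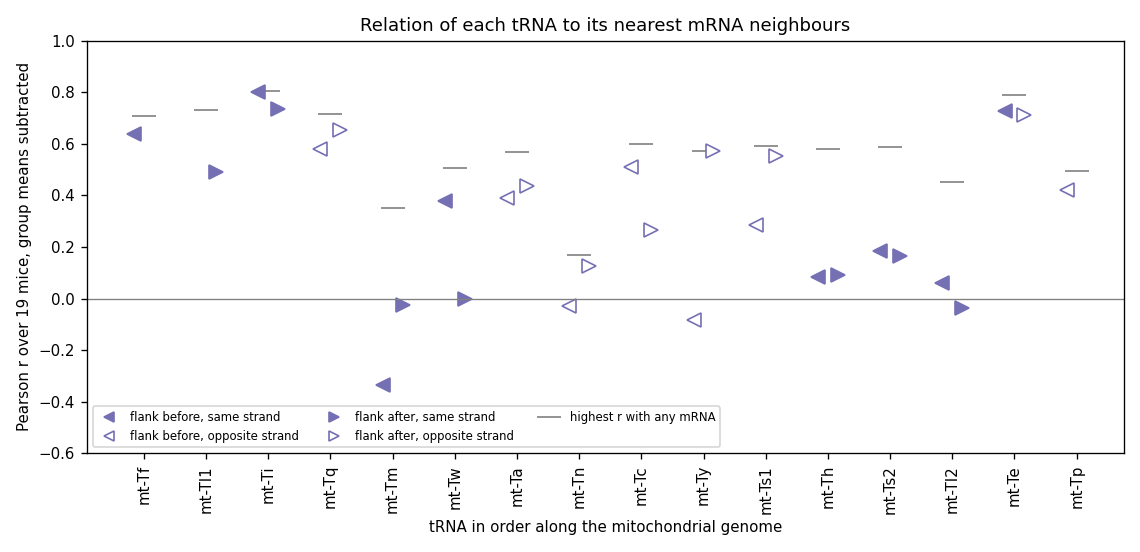
Pearson's r over 19 mice between each tRNA and the nearest mRNA gene before it (left-pointing) and after it (right-pointing), group means subtracted; filled symbols are neighbours on the same strand and open symbols on the opposite strand. Grey dashes give the highest r with any of 13 mRNA genes, which lies above the neighbours for 15 of 16 tRNAs.

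Between tRNAs, likeness over mice did not need adjacency. The 8 adjacent tested tRNA pairs had r from 0.14 to 0.62 (median 0.37), and all 136 tRNA pairs had a median of 0.25. The pair most alike was mt-Tq and mt-Te (r = 0.91), which lie far apart on the circle. The next, mt-Th (histidine) and mt-Tl2 (r = 0.86), lie in the cluster between mt-Nd4 and mt-Nd5, where mt-Ts2 (serine) sits between them (r = 0.62 and 0.53 with each). That cluster was lowest in Gramd1c+/+ low cholesterol mouse 3, with 2, 1 and 16 counts of mt-Th, mt-Ts2 and mt-Tl2, against up to 41, 24 and 225 in other mice. These correlations share libraries and depth, and are given as descriptions.

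After these values were seen, each of the 30 tested members was set against the summed counts of the 7 chromosome 1 pseudogenes, which ran from 1844 to 7556 per mouse. mt-Tq had r = 0.87 (rho 0.85, permutation p = 0.00021, adjusted over 30 relations p = 0.0021; r = 0.81 without the 2 farthest mice). mt-Te had r = 0.81 (rho 0.82) and mt-Ts1, inside the shared stretch, 0.81 (rho 0.77), each with an adjusted permutation p of 0.0021. mt-Ty had r = -0.015 and mt-Tp 0.17. Among the mRNA genes mt-Nd3 had r = 0.72 (adjusted permutation p = 0.0054). For mt-Nd1, mt-Co3, mt-Co2, mt-Nd6 and mt-Nd2 r was 0.68, 0.67, 0.65, 0.64 and 0.61 (adjusted permutation p = 0.0373 each). mt-Ti had r = 0.65 (adjusted permutation p = 0.0641).

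mt-Tq and mt-Te lie outside the stretch shared with chromosome 1, and 0% of their 50-base windows matched another annotated transcript. The share was also 0% for the 5 tRNA genes inside the stretch. Only annotated transcripts were searched, so this share cannot show whether a tRNA gene has a nuclear copy. In each of the 4 groups the mouse with the highest mt-Tq in TPM was also the one with the most pseudogene counts. By counts of mt-Tq this did not hold in Gramd1c-/- mice on low cholesterol, where mouse 1 had 230 and mouse 3 had 220. In Gramd1c-/- mice on low cholesterol, mice 1, 2 and 3 had 5211, 4375 and 5944 pseudogene counts and mouse 4 had 1865, in the same split as mt-Tq. Copies on chromosome 2 had that split too. Gm13341 had 838, 711 and 791 counts against 107, Gm13340 had 205, 173 and 369 against 123, and Gm13339 had 116, 97 and 138 against 11. In Gramd1c+/+ mice on low cholesterol the chromosome 1 pseudogene counts were 1844 to 3096. Gramd1c+/+ high cholesterol mouse 5 did not follow this order, with 5495 pseudogene counts, the second most of its group, beside 88 counts of mt-Tq and 859 of mt-Te, each the second lowest. The part of the pseudogene reads, or of what moves with them, in the mt-Tq difference was not tested.

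**Figure D5:**
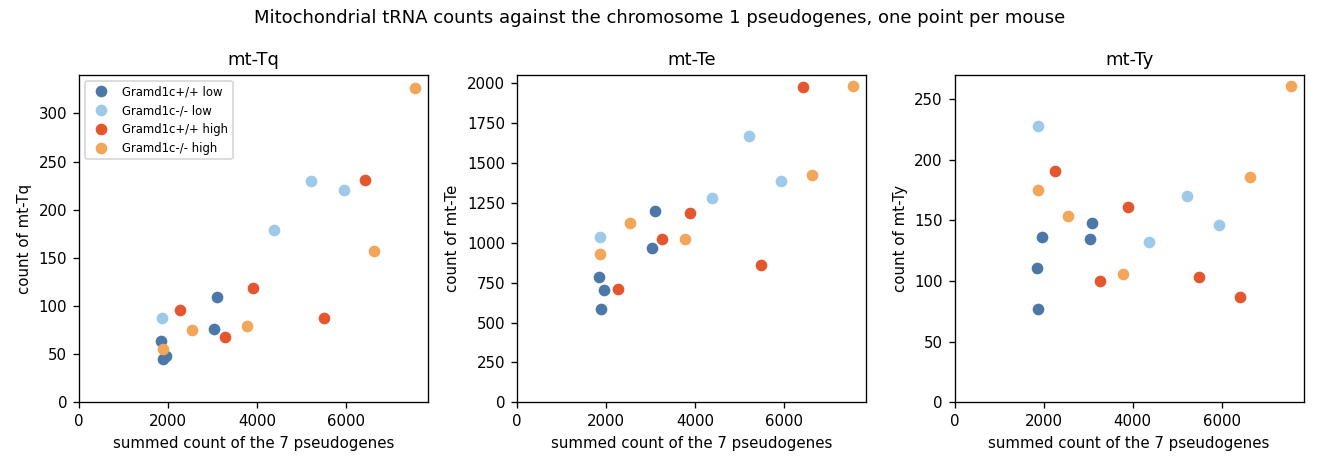
Counts of mt-Tq, mt-Te and mt-Ty against the summed counts of the 7 chromosome 1 pseudogenes, 1 point per mouse, coloured by group, axes from 0. mt-Tq and mt-Te counts go with those of the pseudogenes over the 19 mice (r = 0.87 and 0.81 on log2 CPM, group means subtracted), with Gramd1c+/+ high cholesterol mouse 5 low in both at 5495 pseudogene counts, and mt-Ty has r = -0.015.

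The nuclear genes that serve the mitochondrial genome showed no called change. Of the list for mitochondrial DNA transcription and copying, which holds the polymerase and its partners, 17 of 17 genes were tested. Of the list for tRNA processing and modification 24 were tested, of mRNA stability and decay 20, and of tRNA charging 22. None passed an adjusted p of 0.05 in any comparison by edgeR. On low cholesterol, where the mitochondrial genes had positive medians, the medians of these lists for Gramd1c-/- against Gramd1c+/+ were -0.047, -0.065, -0.075 and -0.087, with 1, 1, 1 and 0 genes at an unadjusted p below 0.05. That was 3.61% of the 83 genes, where 2.66% of all genes tested were there. Tfb1m, a methyltransferase of the mitochondrial ribosome, had -0.28 (SE 0.13), Yrdc, of tRNA threonylcarbamoylation, -0.36 (SE 0.17), and Endog, a mitochondrial endonuclease, -0.34 (SE 0.16).

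For diet in Gramd1c+/+ mice the list medians were -0.014, -0.020, -0.062 and -0.097, with 0, 1, 0 and 1 genes at an unadjusted p below 0.05, or 2.41% of the 83 genes beside 7.93% of all genes. The genes there were Cdk5rap1, a modifier of mitochondrial tRNAs (-0.79, SE 0.31, adjusted p = 0.525, edgeR), and Gars, the glycyl-tRNA synthetase (-0.25, SE 0.098). In Gramd1c-/- mice 1, 3, 3 and 3 genes were there, or 12.0% of the 83 beside 11.4% of all genes, a share near the background. Among them were Alkbh1 (0.88, SE 0.35), which acts on tRNA, and Mterf1a (0.78, SE 0.33), a factor that binds mitochondrial DNA at the end of the ribosomal genes. For genotype on high cholesterol and for the interaction, 0 genes of each list had an unadjusted p below 0.05 by edgeR, beside 2.42% and 1.66% of all genes. Elac2, which cuts tRNA 3′ ends, had -0.24 (SE 0.15) and -0.34 (SE 0.16) for diet in the Gramd1c+/+ and Gramd1c-/- mice.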

How the data were processed

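Members and lists were chosen with earlier results of these data known. Per the labels, liver RNA was poly(A)-selected and made into NEBNext Ultra libraries sequenced as read pairs on a NovaSeq instrument. The authors deposited raw counts per gene, 1 file per mouse, with gene coordinates and length, and the submitters' notes list the aligner STAR 2.5.2b with build GRCm38. No source used here gives the program that counted reads, its strand setting, its annotation or what it did with reads that match several places. The rule also names ribosomal RNA genes, which were not analysed here, so that the planned 15 long genes were 13.

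Symbols came from a GENCODE-based table by gene identifier (35 of 35 matched), and sequences from GENCODE M21 transcripts. TPM was computed from deposited counts and lengths. edgeR 4.0.16 (TMM, quasi-likelihood, 1 fit over 4 groups, 15016 genes kept by filterByExpr with a minimum count of 10) gave the tests, DESeq2 1.42.0 and limma 3.58.1 (R 4.3.3) served as alternative and base, and scipy 1.17.1 checked the exact tests. The script was tested on simulated data. Correlations used 100000 permutations within groups and a prior count of 1. Named were mt-Ti, mt-Tq and, per comparison, the 3 mRNA and 3 tRNA genes with the smallest p, the highest and lowest relations, and at most 4 genes of a nuclear list. The mice are separate animals and counting error is small for mRNA (mitochondrial counts 1023728 to 2153933 per mouse) but not for tRNAs with low counts. Same-numbered mice share no litter or batch in the labels, and their residuals had a mean correlation of -0.0668 over 27 pairs, so numbers were not used to pair mice.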

Additional observations from a re-analysis of the deposited data

Results flagged for a closer look

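In groups of 4 or 5 mice, 144 sets of values were examined for a mouse far from the others of its group (Dixon's gap ratio above 0.829 for 4 mice and 0.71 for 5), of which chance flags about 1 in 20, and 15 were found.

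Gramd1c-/- high cholesterol mouse 2 was highest in its group for mt-Tl1 (6927 TPM, others 1141 to 1737) and mt-Ts1 (29.6 TPM, others 4.30 to 10.5). Gramd1c-/- high cholesterol mouse 5 was highest for mt-Tf (65.9 TPM, others 33.1 to 42.5) and mt-Nd4 (10386 TPM, others 5655 to 6903). Gramd1c+/+ high cholesterol mouse 3 had the highest share of counts on the 35 genes (7.27%, others 5.17% to 5.57%) and on tRNA genes (0.0636%, others 0.0317% to 0.0409%).

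Gramd1c-/- low cholesterol mouse 4 was highest for mt-Tn (1059 TPM, others 636 to 687) and mt-Ty (263 TPM, others 167 to 183) and lowest for the log2 ratio of mt-Tq to mt-Nd1 (-6.85, others -5.89 to -5.74) and to mt-Nd2 (-7.10, others -5.89 to -5.74). In the same group mouse 2 was highest for mt-Tv (73.5 TPM, others 50.2 to 52.7) and mouse 1 lowest for mt-Ts2 (7.33 TPM, others 18.6 to 19.7).

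Among Gramd1c+/+ mice, low cholesterol mouse 1 was highest for mt-Nd4l (84.7 TPM, others 33.7 to 48.0), high cholesterol mouse 1 highest for mt-Th (43.9 TPM, others 22.8 to 27.9), and high cholesterol mouse 4 lowest for the log2 ratio of mt-Ti to mt-Nd2 (-8.12, others -7.21 to -6.88).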

How the results depend on the processing

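No member was called in any comparison under any of the alternatives run (144 values in all), which were DESeq2, RLE scaling, TMM without mitochondrial genes, the mitochondrial mRNA total as library size, no filter or a stricter one, the compared groups only, the 2 runs of animal numbers as a term, each mouse left out, and 2 mice left out that earlier results had shown to stand apart (Gramd1c+/+ low cholesterol mouse 2 and Gramd1c-/- high cholesterol mouse 5). With a replicate block it was 0 members as well. Replicate numbers do not pair these mice.

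Over all genes, DESeq2 called 111 genes for diet in Gramd1c+/+ mice and 94 in Gramd1c-/- mice, against 66 and 49 with edgeR, and with the mitochondrial mRNA total as library size 1478 genes were called for diet in Gramd1c+/+ mice. That scaling moved the median of all genes to -0.30, 0.11, -0.43, -0.026 and 0.41 in the 4 comparisons and the interaction. Of 1007 values under alternatives for the 35 log2 fold changes of genes chosen by smallest p and of mt-Ti and mt-Tq, 3 changed sign, and over all 30 members tested 193 of 4291 did, 68 of them for genotype on high cholesterol. Leaving out each mouse, mt-Tq ranged from -0.44 to 0.61 and mt-Atp8 from -0.35 to 0.032 for genotype on high cholesterol, and mt-Tp for diet in Gramd1c+/+ mice was -0.026 with the mitochondrial mRNA total.

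For genotype on high cholesterol the ratio of mt-Tq to mt-Nd1 ranged from -0.31 to 0.26 with each mouse left out, and that to mt-Nd2 from -0.39 to 0.21, with 0.11 without the 2 mice. In the other 14 ratio comparisons, each kept its direction in every alternative. Relations past the threshold numbered 12 without subtracting group means, 1 relative to the mitochondrial mRNA total, 2 without the 2 mice and 0 to 7 with each mouse left out, against 6. A flanking gene had the highest r for 0 tRNAs without subtracting group means, 2 relative to the mitochondrial total and 1 to 4 with each mouse left out, against 1. Without Mup and Alb in the denominator the Gramd1c-/- low cholesterol shares were 5.55% (all members) and 0.0402% (tRNA), against 5.05% and 0.0366%. The cause was not tested in these cases.

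Depth limits the tRNAs: 12 of 22 passed a filter of 50 counts in 4 mice.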
